A study of Mus musculus with 4 samples.

Results

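The genes described are 9 members of the interleukin-6 (IL-6) family pathway, chosen by symbol from the 24054 gene symbols listed for soleus muscle: the cytokines Il6, Lif and Clcf1, the receptor subunits Il6ra, Il6st, Lifr and Osmr, the transcription factor Stat3 and its inhibitor Socs3. All 9 were listed. Of these, 7 had enough counts to be tested among 13652 tested genes, and Il6 and Lif did not. The muscles came from female *mdx* mice, which lack dystrophin through a mutation carried by both groups. Starting at 8 weeks of age, and up to the 12-month endpoint, the femoral vein was infused once a month either with mouse cardiosphere-derived cells (mCDCs, stromal cells at passage 5 that grew from 1 heart of a C57BL/10ScSn/J mouse, a strain without the *mdx* mutation, n = 2) or with the medium that carried them as vehicle (n = 2). The comparison asks how repeated mCDC dosing changed gene expression in dystrophic muscle. The 4 libraries, 1 per labelled sample, held 22481391 to 27187425 expected counts each. The labels do not tie the samples to single animals, so p-values measure the spread between these samples, which may be technical. Summed levels of 8 muscle fiber genes lay in all libraries at 119400 to 133500 CPM (counts-per-million, relative to the scaled library size). Where a gene's values are given in pairs, replicate 1 comes before replicate 2.

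Cytokines of the IL-6 family act through a shared receptor subunit, gp130, encoded by Il6st. Each cytokine joins gp130 to further subunits, such as the IL-6 receptor for IL-6, the LIF receptor for LIF and CLCF1, and the oncostatin M receptor for oncostatin M. The assembled receptor activates Janus kinases, which phosphorylate STAT3, and STAT3 then enters the nucleus. SOCS3 is produced in response to STAT3, binds gp130 and its kinases, and closes the signal down. In skeletal muscle these cytokines are known for effects on satellite cells, on regeneration after injury and on muscle wasting.

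The promoter stretches of Socs3 and Il6 are shown because Socs3 is the feedback target of STAT3 and Il6 the founding cytokine of the family, and because theirs were the member promoters that held a searched motif. They are the 250 bases before the start of transcription in RefSeq (GRCm38.p6), cut for Socs3 to the 165 bases that hold no annotated exon. A noncoding GENCODE transcript of Socs3 begins further upstream, so these bases lie in an intron of that transcript. For Il6 the window is chr5:30012864-30013113 on the plus strand, and for Socs3 chr11:117969452-117969616 on the minus strand. Capitals mark a match of GGANTTTCC, the core of an NF-kappaB type sequence, in Il6 and the STAT-type sequence TTCNNNGAA in Socs3.
Il6: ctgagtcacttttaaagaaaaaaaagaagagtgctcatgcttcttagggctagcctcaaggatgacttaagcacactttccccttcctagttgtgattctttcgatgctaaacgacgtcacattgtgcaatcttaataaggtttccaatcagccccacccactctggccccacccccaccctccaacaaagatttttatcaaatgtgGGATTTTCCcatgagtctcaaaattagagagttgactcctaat
Socs3: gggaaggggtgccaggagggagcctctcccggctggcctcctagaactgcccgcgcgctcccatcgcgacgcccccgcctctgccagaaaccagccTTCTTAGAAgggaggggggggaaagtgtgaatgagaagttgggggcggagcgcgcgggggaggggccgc
TTCNNNGAA was searched on both strands, which for this palindrome is the same search, in 9 windows of 8 members, all but Clcf1. The sequence occurred in 1 of the 9, at position -154 from the start of Socs3, and in 7.02% of all 32851 promoter windows of the same length. The stricter form TTCCNGGAA, every match of which is also a match of TTCNNNGAA, occurred in none of the member windows and in 0.913% of all windows. GGANTTTCC, searched on both strands, occurred in 1 member window, at position -43 of Il6, and in 1.07% of all windows. These are matches of letters and no binding was measured.

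The 9 members lay on 6 chromosomes in the mm10 build, by GENCODE annotation of GRCm38, and all are protein-coding. Il6 is at chr5:30013114-30019981, Lif at chr11:4257557-4272514 and Clcf1 at chr19:4214238-4223490. Il6ra is at chr3:89864059-89913196, Il6st at chr13:112464070-112510086, Lifr at chr15:7090614-7197489 and Osmr at chr15:6813577-6874969, while Stat3 is at chr11:100885098-100939540 and Socs3 at chr11:117966079-117970047. Exons of Stat3 overlap 72 bases of Stat5a on the opposite strand, and exons of Il6ra overlap 242 bases of the antisense gene Gm42809. Whether the counting used strand is not given in the sources used here. Clcf1 shares 7.33% of its 31-base words with AC109138.7, an overlapping gene on the same strand that is not among the listed symbols. For the other 8 members the share of words found in other genes was between 0% and 1.72%. Lifr was the single member whose expected counts were not whole numbers in all 4 libraries, as happens when RSEM divides a read between genes.

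None of the 7 tested members passed both thresholds of the study, more than 1.5-fold and p under 0.05. The p was taken here as unadjusted, from edgeR's quasi-likelihood test. Both thresholds were passed by 1.26% of all tested genes as higher and by 2.74% as lower in mCDC muscles. Among the members, 1 of 7, Lifr, had an unadjusted p under 0.05, against 6.94% of all tested genes, and DESeq2 also called no member and gave a p under 0.05 to Lifr alone. No tested gene of any kind had an adjusted p under 0.05 with the quasi-likelihood test, while 947 had an unadjusted p under 0.05. DESeq2 gave 48 genes an adjusted p under 0.05, edgeR's exact test 58 and its likelihood ratio test 66, and no member was among them. The median log2 fold change of the 7 tested members was 0.18, with 4 above 0 and 3 below, and that of all tested genes was -0.0094. The members' median was 0.053 without vehicle replicate 1, 0.019 without vehicle replicate 2 and -0.073 without mCDC replicate 2, so neither its size nor its sign held when 1 library was left out. CPM did not overlap between the groups for 3 of the 7 members, 1 with both mCDC libraries above both vehicle libraries and 2 with both below. Of all tested genes, 19.2% lay above in this way and 19.5% below.

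**Figure D1:**
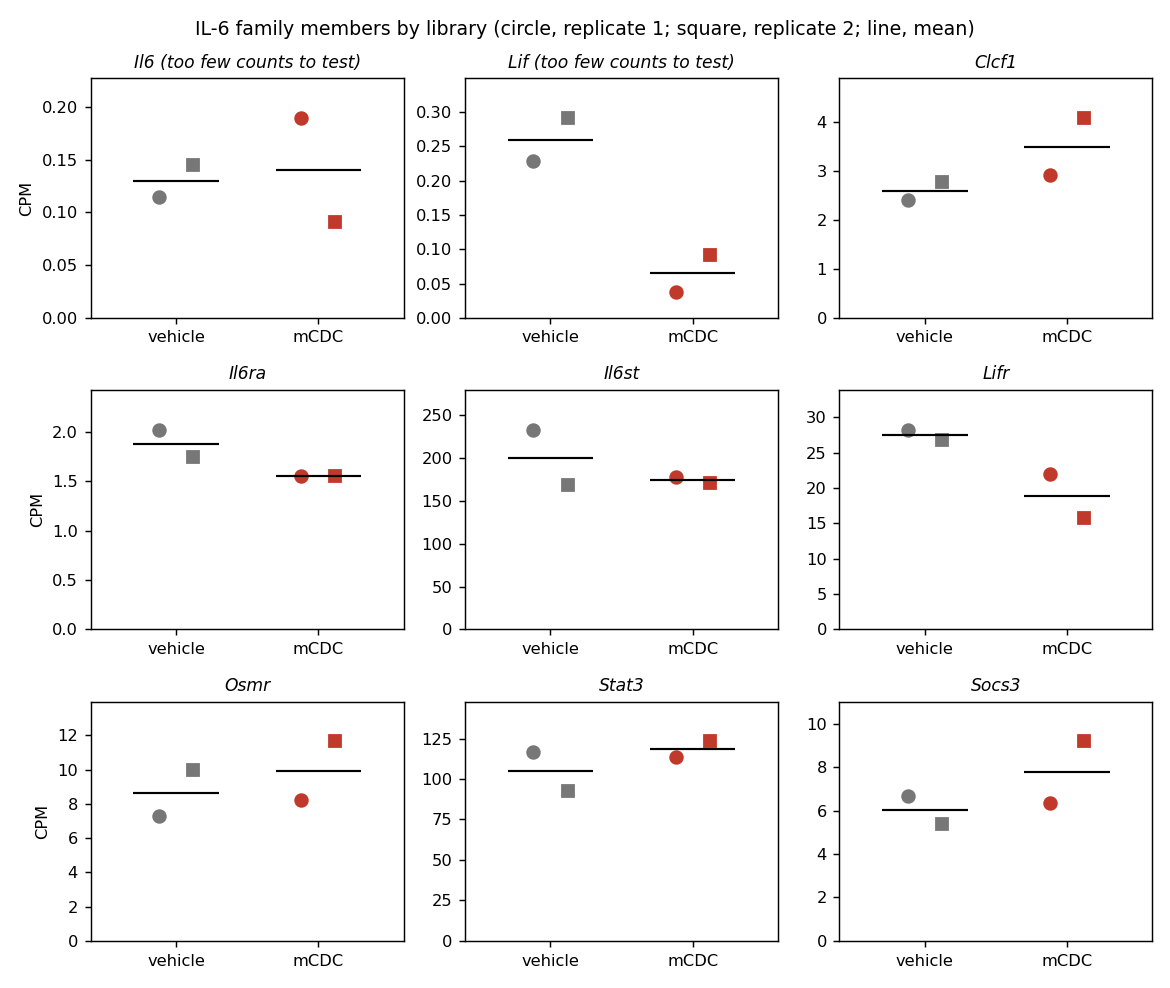
CPM of the 9 members in each library, vehicle in grey and mCDC in red, each panel with its own linear axis from 0; circles are replicate 1, squares replicate 2 and lines group means (n = 2). Clcf1 lies higher in both mCDC libraries, Lif, Il6ra and Lifr lie lower, and the groups overlap for the other 5.

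Il6 and Lif were the rarest members per kilobase. Il6, the cytokine that gives the family its name, had 5 and 2 counts in mCDC replicates 1 and 2 and 3 and 4 counts in vehicle replicates 1 and 2. The groups overlapped, and the summed counts were 7 in each group, a ratio of 1.11 of mCDC to vehicle after scaling with an exact 95% interval from 0.333 to 3.72 that covers counting error only. A difference within these bounds was not detectable at this depth.

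Lif, which acts on myoblasts and satellite cells among many other targets, had 1 and 2 counts in mCDC muscles and 6 and 8 in vehicle muscles. Both vehicle libraries lay above both mCDC libraries. The ratio of mCDC to vehicle was 0.238, with an interval from 0.0439 to 0.854 that covers counting error only and rests on 3 counts against 14. Lif did not pass the filter on low counts, so its difference was not part of the test. Without the filter, edgeR's quasi-likelihood test gave it an unadjusted p of 0.0353 and an adjusted p of 0.774, and DESeq2 gave an unadjusted p of 0.229.

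Clcf1, a cytokine that signals through the CNTF receptor, the LIF receptor and gp130, was the member cytokine with enough counts to test. It was at 2.92 and 4.07 CPM in mCDC muscles and at 2.40 and 2.76 CPM in vehicle muscles. Both mCDC libraries lay above both vehicle libraries, mCDC replicate 1 by a small margin. The log2 fold change was 0.42 (standard error (SE) 0.28, 95% interval -0.22 to 1.07, edgeR adjusted p = 0.767), an interval that runs from 0.856-fold to 2.1-fold. Leaving out mCDC replicate 2 gave 0.17, and leaving out mCDC replicate 1 gave 0.65.

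Il6st, encoding gp130, was the most abundant per kilobase of the receptor genes among the members, at 177 and 171 CPM in mCDC muscles and 233 and 168 CPM in vehicle muscles. Vehicle replicate 1 stood above the other 3 libraries, which lay close together. The log2 fold change was -0.20 (SE 0.17, 95% interval -0.60 to 0.19, edgeR adjusted p = 0.802). It was 0.053 without vehicle replicate 1 and -0.42 without vehicle replicate 2, so its direction rested on 1 vehicle library, and it was -0.028 with the trend on transcript length and GC content removed.

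Lifr, the subunit that joins gp130 to receive LIF and CLCF1, had the smallest p of the members. It stood at 21.9 and 15.8 CPM in mCDC muscles and at 28.2 and 26.8 CPM in vehicle muscles. Both mCDC libraries lay below both vehicle libraries, and mCDC replicate 2 was the lowest. The means were 18.8 ± 4.4 CPM (SD, n = 2) in mCDC muscles and 27.5 ± 1.0 CPM (SD, n = 2) in vehicle muscles. The log2 fold change was -0.54 (SE 0.19, 95% interval -0.98 to -0.11, edgeR unadjusted p = 0.0210 and adjusted p = 0.684), a level 68.7% of that in vehicle muscles, and did not reach 1.5-fold. Without mCDC replicate 1 it was -0.80 and was called lower, without mCDC replicate 2 it was -0.33, and with the length and GC trend removed it was -0.37 (edgeR unadjusted p = 0.0761).

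Marker lists of cells that lie between the fibers differed in direction. All 6 tested endothelial markers and all 8 markers of fibro-adipogenic cells had log2 fold changes below 0, with medians of -0.61 and -0.43, and in each list 1 gene was called lower, Vwf and Pdgfra. Of all tested genes, 1.26% were called higher and 2.74% lower. The 5 Schwann cell markers, with a median of -0.44, and the 5 adipocyte markers, with a median of -0.18, all lay below 0 as well. Their summed CPM overlapped between the groups, at 28.1 and 32.2 against 28.0 and 47.3 for Schwann cells and at 36.9 and 34.9 against 62.6 and 17.1 for adipocytes. Below 0 were also 4 of 5 tendon markers, of which Tnmd and Fmod were called lower and Scx, the gene above 0, was called higher. By contrast 4 of 6 smooth muscle and pericyte markers lay above 0, with a median of 0.13, Cspg4 called higher and Rgs5 lower, and so did 4 of 5 tested satellite cell markers, with a median of 0.22 and Pax7 called higher. The summed CPM of the endothelial list was 128 and 102 in mCDC muscles and 112 and 231 in vehicle muscles, and that of the fibro-adipogenic list was 587 and 470 against 562 and 892. Both sums were highest in vehicle replicate 2, and the groups overlapped. In bulk tissue, fewer cells of a type and less RNA per cell cannot be told apart, and the part of these cells in the Lifr difference was not tested.

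Osmr, the oncostatin M receptor subunit, had 8.22 and 11.6 CPM in mCDC muscles and 7.29 and 10.005 CPM in vehicle muscles. The second replicate was the higher in each group and the groups overlapped. Its log2 fold change was 0.20 (SE 0.25, 95% interval -0.38 to 0.77, edgeR adjusted p = 0.861), and it was -0.073 without mCDC replicate 2 and -0.0090 without vehicle replicate 1. Il6ra, the binding subunit for IL-6, had 1.55 CPM in each mCDC library and 2.02 and 1.75 CPM in the vehicle libraries, on 34 to 53 counts per library. Both mCDC libraries lay below both vehicle libraries, but the log2 fold change of -0.28 was smaller than its standard error of 0.30 (95% interval -0.98 to 0.42, edgeR adjusted p = 0.841). The value was -0.16 without vehicle replicate 1, -0.38 without vehicle replicate 2 and -0.14 with the length and GC trend removed.

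Ratios between members within a library, chosen after the values were seen, were compared for 6 pairs. Per kilobase of the longest transcript, Lifr stood at 152% and 77.0% of Osmr in mCDC replicates 1 and 2 and at 220% and 152% in vehicle replicates 1 and 2. The log2 ratio of Lifr to Osmr was lower in both mCDC libraries, by 0.76 on average, although mCDC replicate 1 and vehicle replicate 2 nearly met, at log2 ratios of counts of 1.415 and 1.420. With 2 libraries in each group an exact permutation test, two-sided, cannot give a p below 0.333, which was the value for this pair (adjusted p = 1.0 over the 6 pairs). The other 5 ratios, Lifr, Osmr and Il6ra to Il6st, Socs3 to Stat3 and Il6ra to Lifr, overlapped between the groups.

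Stat3, the transcription factor that carries the signal to the nucleus, had 114 and 123 CPM in mCDC muscles and 117 and 92.7 CPM in vehicle muscles. Only vehicle replicate 2 stood lower than the rest, and the groups overlapped. The log2 fold change was 0.18 (SE 0.15, 95% interval -0.17 to 0.53, edgeR adjusted p = 0.809), an interval that reaches 1.44-fold. It was 0.019 without vehicle replicate 2 but 0.36 without vehicle replicate 1 and 0.31 with the length and GC trend removed, and was not called in any of these fits. These are transcript levels, and the phosphorylated form of STAT3 that reports on signaling was not measured.

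Socs3, whose promoter stretch is printed above, had 6.36 and 9.18 CPM in mCDC muscles and 6.68 and 5.38 CPM in vehicle muscles. mCDC replicate 2 was the highest, and mCDC replicate 1 lay between the vehicle libraries. The log2 fold change was 0.36 (SE 0.25, 95% interval -0.21 to 0.94, edgeR adjusted p = 0.768), and leaving out mCDC replicate 2 gave 0.079. Leaving out mCDC replicate 1 gave 0.61, which was not called either. The leave-one-out plot sets these values beside those of the other tested members.

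**Figure D2:**
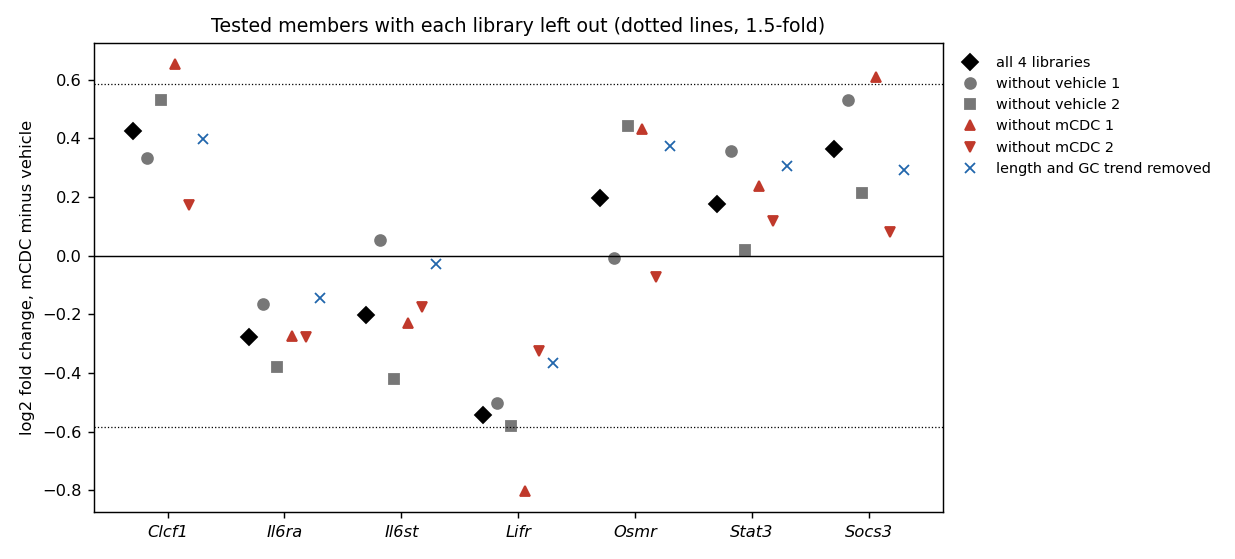
Log2 fold change (mCDC minus vehicle, vertical axis) of the 7 tested members with all 4 libraries, with each library left out in turn, and with the length and GC trend removed; dotted lines mark 1.5-fold. Lifr stays below 0 in every setting, from -0.80 to -0.33, while Il6st and Osmr cross 0 when a single library is left out.

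Levels were compared between genes per length, first as CPM per kilobase of the longest annotated transcript. On that scale Il6st and Stat3 led, with means over the 4 libraries of 21.6 and 18.5, and their ranges overlapped. Socs3, Lifr and Osmr followed at 2.70, 2.40 and 1.69, and neighbours in this trio overlapped over all libraries. Within the groups the order differed without overlap, with Lifr (2.85) above Socs3 (2.36) in vehicle muscles and Socs3 (3.05) above Lifr (1.95) in mCDC muscles. Clcf1 was at 0.856 and Il6ra at 0.199, each separate from its neighbours, and Il6 and Lif came last at 0.0577 and 0.0403, with overlapping ranges. With the summed length of all exons in place of the longest transcript, Clcf1 (0.798) and Osmr (0.767) changed places with overlapping ranges, and Il6st no longer overlapped Stat3. Per kilobase of the longest transcript, Il6ra stood at 0.872% to 1.04% of Il6st, the range over all 4 libraries.

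**Figure D3:**
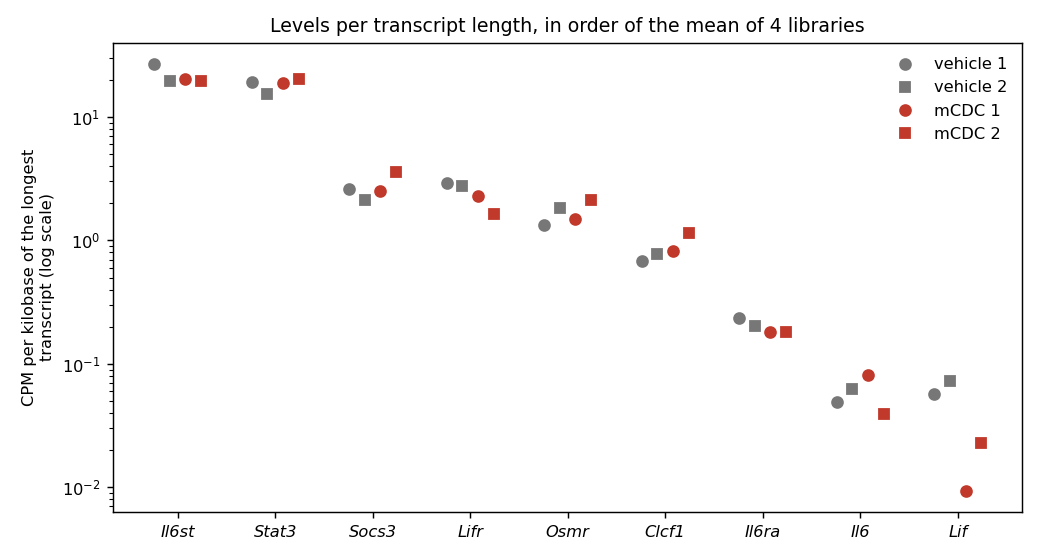
CPM per kilobase of the longest transcript (log scale) of the 9 members in the 4 libraries, ordered by the mean over the libraries, vehicle in grey and mCDC in red. Il6st and Stat3 lie between 15.4 and 26.8, while Il6 and Lif lie at 0.0808 or lower.

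Of 35 other genes of the pathway, 30 were tested. In mCDC muscles none was called higher and 1, or 3.33% of the 30, was called lower, against 2.74% of all tested genes. An unadjusted p under 0.05 was given to 3 by edgeR. DESeq2 called none. The median log2 fold change was -0.11, with 12 genes above 0 and 18 below. The called gene was Cntfr, the receptor subunit for ciliary neurotrophic factor that is also used by CLCF1 together with the LIF receptor. It was at 1.70 and 1.46 CPM in mCDC muscles and at 2.90 and 2.95 CPM in vehicle muscles, on 32 to 81 counts. Both mCDC libraries lay below both vehicle libraries, with a log2 fold change of -0.88 (SE 0.28, edgeR unadjusted p = 0.0143 and adjusted p = 0.642). It was not called with DESeq2 (-0.87) nor when either mCDC library was left out, although the value stayed between -0.996 and -0.776.

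Jak2 and Cebpb were the others with an unadjusted p under 0.05, and neither reached 1.5-fold. Jak2, a kinase bound to gp130, had 19.5 and 17.4 CPM in mCDC muscles and 29.6 and 24.3 CPM in vehicle muscles, and its log2 fold change was -0.55 (SE 0.17, edgeR adjusted p = 0.638). The other kinase and STAT genes outside the members, Jak1, Tyk2, Stat5a and Stat5b, had log2 fold changes from -0.24 to -0.13. All 5 genes of this list thus lay below 0, as did 7043 of 13652 tested genes, while the member Stat3 was at 0.18. Cebpb, a transcription factor that acts on Il6 and on acute-phase genes, had 235 and 233 CPM in mCDC muscles and 285 and 334 CPM in vehicle muscles, and its log2 fold change was -0.41 (SE 0.14, edgeR adjusted p = 0.683). For neither gene did the groups overlap.

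The inhibitors of the pathway had values on both sides of 0. Of 8 tested, 5 had log2 fold changes above 0 and 3 below, from -0.43 for Socs2 to 0.64 for Socs1, and none was called. The 3 genes for shedding of membrane receptors, Adam10, Adam17 and Rhbdf2, lay between -0.12 and -0.024. Of the 4 tested adaptors that link the receptor to other pathways, 2 lay above 0 and 2 below, and of the 5 regulators of Il6 expression, Cebpb alone lay below 0. Among the tested cytokines, Il11, Ctf1 and Cntf, the values ran from -0.41 for Cntf to 0.030 for Il11.

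**Figure D4:**
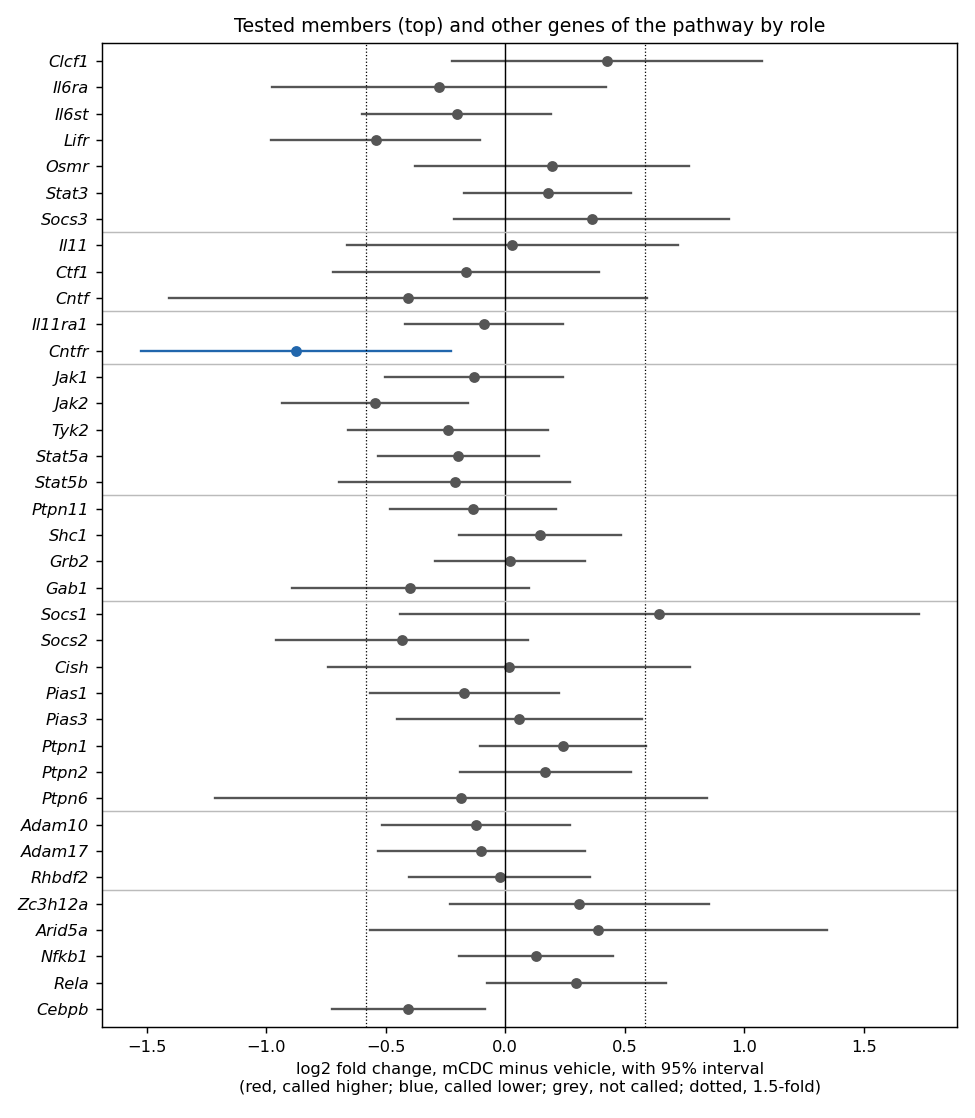
Log2 fold changes (mCDC minus vehicle) with 95% intervals from the edgeR fit for the 7 tested members, above the first grey line, and for 30 other genes of the pathway in blocks by role; dotted lines mark 1.5-fold. Cntfr (blue, -0.88) is the gene called lower, and the intervals of all but Lifr, Cntfr, Jak2 and Cebpb include 0.

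Genes known to respond to STAT3 or to IL-6 were followed as a list of 29, of which 26 were tested. In mCDC muscles 5 were called higher and none lower, 19.2% of the list, against 1.26% of all tested genes called higher and 2.74% called lower. The list was written with earlier results of these data known, so these shares are no independent test of it. The median log2 fold change of the list was 0.12 and that of all tested genes -0.0094, with 18 genes above 0 and 8 below. Lcn2 reached 10 counts in mCDC libraries alone, so it could be tested only because it was high there, and without it 4 of 25 genes were called higher and the median was 0.096. The called genes were Serpina3n, Lcn2, Mt2, Timp1 and Mt1, and all of them also respond to signals other than STAT3. Bcl3, Myc, Pim1, Junb and Fos, further genes of the list, had log2 fold changes from 0.040 to 0.42 and were not called. On the other side of 0, and not called either, were Cebpd at -0.77, Il1r1 at -0.56, Icam1 at -0.43 and Il4ra at -0.36.

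Serpina3n, a secreted protease inhibitor of the acute phase, had 28.2 and 65.0 CPM in mCDC muscles and 11.3 and 7.57 CPM in vehicle muscles. Both mCDC libraries lay above both vehicle libraries, and the log2 fold change was 2.30 (SE 0.38, edgeR adjusted p = 0.299). Over 13 alternative settings its log2 fold change lay between 1.58 and 2.79, it was called in each, and its adjusted p lay between 8.10e-06 (edgeR likelihood ratio test) and 0.774 (edgeR without a filter on low counts). Lcn2, the iron-scavenging protein lipocalin 2, had 0.720 and 1.10 CPM against 0.267 and 0.109, and a log2 fold change of 2.24 (SE 0.61, edgeR adjusted p = 0.619). It rested on 19 and 24 counts against 7 and 3, passed the filter on low counts through the mCDC libraries alone, and was not tested where 10 counts were required in every library.

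The metallothioneins Mt1 and Mt2, metal-binding proteins that also respond to zinc and to glucocorticoids, owed most of their difference to a single library. Mt1 had 73.7 and 201 CPM in mCDC muscles and 69.3 and 52.9 CPM in vehicle muscles, and Mt2 had 44.7 and 149 against 38.1 and 26.2. mCDC replicate 1 lay just above the vehicle libraries for both. The log2 fold change of Mt1 was 1.17 (edgeR adjusted p = 0.683) and that of Mt2 was 1.59 (edgeR adjusted p = 0.635). Leaving out mCDC replicate 2 brought them to 0.27 and 0.48, and leaving out vehicle replicate 2 to 0.98 and 1.34, and neither gene was called in these fits. Leaving out mCDC replicate 1 gave 1.72 for Mt1 and 2.22 for Mt2. Timp1, an inhibitor of matrix metalloproteinases, had 4.09 and 13.1 CPM in mCDC muscles and 2.82 and 4.69 CPM in vehicle muscles, and the groups overlapped. Its log2 fold change of 1.18 (edgeR adjusted p = 0.714) came to 0.12 when mCDC replicate 2 was left out, to 0.86 when vehicle replicate 1 was and to 1.59 when vehicle replicate 2 was, and it was called in none of these 3 fits. With mCDC replicate 1 left out it was 1.79. It was also not called without a filter on low counts or with at least 10 counts in every library (edgeR unadjusted p = 0.0640 and 0.0510). DESeq2 called Serpina3n, Lcn2 and Timp1 but not Mt1 and Mt2.

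Without mCDC replicate 2, 2 genes of the list were called higher, Serpina3n and Lcn2. That library also held the most Cd68, a lysosomal gene of macrophages, and the most Atf3, an immediate early stress gene. Cd68 was at 15.4 CPM in mCDC replicate 2 and at 2.71 to 4.15 CPM in the other 3 libraries, while the summed CPM of 8 macrophage markers overlapped between the groups, at 35.6 and 43.9 against 30.3 and 46.1, and among them Cd68 was called higher and Csf1r lower, 1 of 8 in each direction against 1.26% and 2.74% of all tested genes. Atf3 was at 60.0 CPM in mCDC replicate 2 and at 11.8 to 21.6 CPM in the others, and was the single gene called of 10 immediate early genes, of which Fos and Junb are also in the STAT3-responsive list. Of 6 neutrophil markers, cells that also hold Lcn2, 5 were listed, and the defining genes S100a9 and Retnlg had 3 counts or fewer in every library. S100a8, also a defining gene, had 3 and 7 counts in mCDC muscles and 1 and 0 in vehicle muscles and was too rare to be tested. The tested ones were Csf3r, at a log2 fold change of -0.72, and Cxcr2, at 0.097, and neither was called. The summed CPM of the list overlapped between the groups, at 6.67 and 6.21 against 5.46 and 7.28. Of 10 glucocorticoid-responsive genes, 2 were called higher, Pdk4 and Cdkn1a, and 4 lower, Tsc22d3, Sgk1, Zbtb16 and Ddit4, against 1.26% and 2.74% of all tested genes. The part of macrophages, neutrophils, handling stress or hormone in the difference of the list was not tested.

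**Figure D5:**
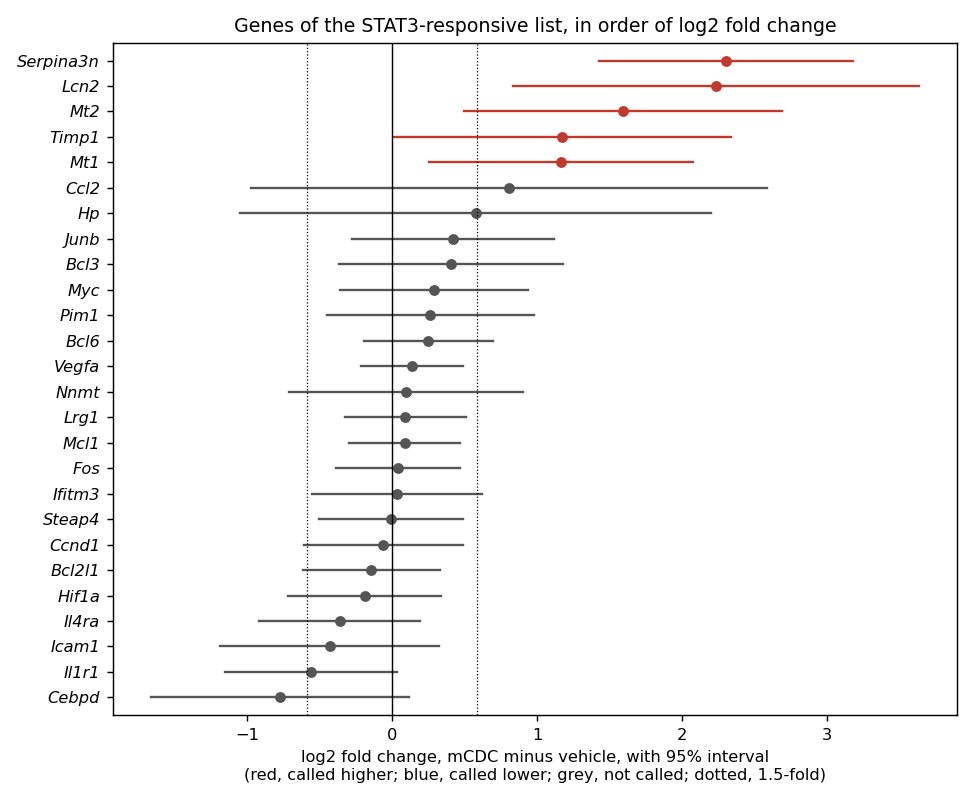
Log2 fold changes (mCDC minus vehicle) with 95% intervals from the edgeR fit for the 26 tested genes of the STAT3-responsive list, in order of size, with genes called higher in red; dotted lines mark 1.5-fold. Serpina3n (2.30) and Lcn2 (2.24) lie at the top and Cebpd (-0.77, not called) at the bottom.

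The pattern of Lifr over the 4 libraries was compared with that of 946 other tested genes with an unadjusted p under 0.05, by the Euclidean distance between log2 CPM values (prior count 2) centred on each gene's mean. The nearest were Pik3ip1, Rasgrp3, Nek1, Trpm7 and Tep1, at distances of 0.036 to 0.090. Pik3ip1, an inhibitor of phosphoinositide 3-kinase, had 32.1 and 23.3 CPM in mCDC muscles and 40.3 and 39.0 CPM in vehicle muscles. As for Lifr, mCDC replicate 2 was the lowest and the vehicle libraries lay close together. With 4 libraries such likeness describes the order of the samples and no more.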

How the data were processed

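Soleus samples of *mdx* mice given mCDCs (n = 2) or vehicle (n = 2) were compared. The authors aligned reads to UCSC transcripts and estimated expression with RSEM, and the deposited values are its expected counts, unnormalized. The submitters' processing notes list Bowtie2 2.1.0, RSEM 1.2.15 and mm10. The study's methods and the sample records name different library kits.

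After rounding to whole numbers, the expected counts were filtered with filterByExpr and scaled by TMM in edgeR 4.0.16 (R 4.3.3). All genes entered the quasi-likelihood test (legacy = FALSE), and a gene was called when it passed 1.5-fold and an unadjusted p of 0.05. Adjusted p-values (Benjamini-Hochberg) run over all tested genes. SE is the absolute log2 fold change over the root of F. Poisson and binomial intervals are exact. The code was tested on simulated data. DESeq2 1.42.0 was an alternative.

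The members and gene lists were chosen with earlier results of these data known. The genes named are the 9 members, called genes of the pathway and STAT3-responsive lists, and the 5 genes nearest to the member with the smallest p; other genes named were chosen after their values were seen. Of the pathway list, 2 genes are not reported here and are left out of its counts.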

Additional observations from a re-analysis of the deposited data

How the results depend on the processing

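The members, pathway genes and STAT3-responsive genes called higher or lower were counted again under RLE size factors, other filters, other tests, a replicate block and removal of the length and GC trend, and with each library left out, where the lone library of a group is assumed to vary like the other group. Without a filter on low counts 1 member, Lif, and 2 pathway genes, Cntfr and Ebi3, were called lower, against 466 of 18132 tested genes. Lif and Ebi3 had not passed the filter. With at least 10 counts in every sample, 3 STAT3-responsive genes were called higher, against 156 of 12862 tested genes. With DESeq2, 3 STAT3-responsive genes were called higher and 1, Cebpd, lower, and 0 pathway genes lower. Of 18132 genes in that fit, 157 were called higher and 270 lower. The cause of these changes was not tested. Over the fits that left out 1 library, 112 to 396 of all genes were called higher and 237 to 834 lower, 0 to 1 members lower (Lifr, without mCDC replicate 1), 0 to 1 pathway genes higher (Arid5a, without vehicle replicate 1) and 0 to 4 lower (0 without mCDC replicate 2, and Cntfr, Gab1, Jak2 and Socs2 without vehicle replicate 2), and 2 to 6 STAT3-responsive genes higher (2 without mCDC replicate 2, 6 without mCDC replicate 1) and 0 to 2 lower (2 without vehicle replicate 1). Replicate numbers showed no shared deviation over all genes (correlation of deviations -0.039), which cannot tell whether samples were handled in pairs. With the replicate block 0 members were called, Lifr was at -0.56, and 172 genes were called higher and 309 lower. Counts of 1 to 8 per library limit what can be said of Il6 and Lif.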

Other observations

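Oncostatin M, the cytokine received by the Osmr subunit, was barely counted: Osm had 2 counts in mCDC replicate 1 and 0 counts in the other 3 libraries. A count of 0 in a library does not show that a transcript was absent, and 3 counts or fewer were taken as the floor. Of the IL-27 subunit genes, Il27 had 13 and 6 counts in mCDC muscles and 7 and 6 in vehicle muscles, and Ebi3 had 0 and 1.41 expected counts in mCDC muscles and 4 and 8 in vehicle muscles. Il27ra, its receptor, and Ctf2, a relative of cardiotrophin, had between 1 and 13 counts in each library. These genes were too rare to be tested after the filter on low counts.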
